A study of Arabidopsis thaliana with 8 samples.

Results

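ATMDAR2 (AT5G03630), a monodehydroascorbate reductase, and SAPX (AT4G08390), the ascorbate peroxidase of the chloroplast stroma and the mitochondrion, were followed in imbibed Arabidopsis thaliana seeds. Each gene was represented by the single probe set annotated to it alone, 250916_at for ATMDAR2 and 255142_at for SAPX. They made 2 of the 22746 probe sets in the table and 2 of the 13513 annotated to 1 gene. Seeds were either 35S-GSH1, a line in the Col-0 background that overexpresses GSH1, or wild-type Col-0, and both were imbibed for 24 h at 4 °C (the seeds described as vernalized) or at 22 °C. The groups were therefore 35S-GSH1 at 4 °C, 35S-GSH1 at 22 °C, Col-0 at 4 °C and Col-0 at 22 °C, with 2 single-colour Affymetrix arrays each. The 35S promoter, from a plant virus, is active in most plant tissues, and the sources used here do not say how many independent lines or seed lots stood behind the arrays. The spread behind the p-values is that between these samples, and it may be technical in part or in full.

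Ascorbate peroxidases reduce hydrogen peroxide to water with ascorbate as the electron donor, which leaves the monodehydroascorbate radical. Monodehydroascorbate reductases turn that radical back into ascorbate with NADH or NADPH, and dehydroascorbate reductases recover its further oxidation product with glutathione, which glutathione reductases then regenerate. GSH1 is the gene of glutamate-cysteine ligase, which joins glutamate and cysteine at the start of glutathione synthesis, and glutathione is the thiol that feeds this cycle. Imbibing seeds resume respiration and form hydrogen peroxide, and the ascorbate-glutathione cycle is one of the systems known to remove it.

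Median deposited intensities ran from 12.3 to 16.2 per array, and replicate arrays of a group correlated across the 13648 tested probe sets with Pearson's r of 0.962 to 0.972. The level of GSH1 itself was not analysed here, so genotypes were taken from the labels alone. Of 14 seed markers 1 was tested, the oleosin OLEO3, a protein of seed oil bodies, whose deposited intensity was 489 to 735.9 across the 8 arrays. Of 12 markers of green seedling tissue 1 was tested, the light-harvesting gene LHCB4.1, at 225.9 to 431.

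ATMDAR2 was dim, and it was lowest in cold-imbibed 35S-GSH1 seeds. Its deposited intensity was 2.8 and 2.1 in 35S-GSH1 at 4 °C and 18.3 and 7.9 in 35S-GSH1 at 22 °C. In Col-0 it was 16.4 and 11.5 at 4 °C and 11.8 and 6.4 at 22 °C. Whether the transcript was detected at all on the 35S-GSH1 arrays at 4 °C cannot be told, since no detection call or background level was used here, so the size of any difference from that group is uncertain. The pair of 35S-GSH1 arrays at 4 °C lay below all 6 other arrays, and on the deposited scale the other 3 groups overlapped. The share of all probe sets that separate in this way was not counted. After quantile normalization, which gives every array the same distribution of values, the levels were 2.41 and 2.19 in 35S-GSH1 at 4 °C against 19.0 and 9.32 in 35S-GSH1 at 22 °C. On this scale the 35S-GSH1 arrays at 4 °C lay below those of 35S-GSH1 at 22 °C, as for 24.8% of tested probe sets. They also lay below those of Col-0 at 4 °C, as for 16.1%. The ATMDAR2 probe set stood above only 21.8% and 21.0% of all probe sets on the 35S-GSH1 arrays at 4 °C. On the other arrays it stood above 36.4% to 54.4% of them.

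SAPX was brighter, and it was lower at 4 °C than at 22 °C on every array. Its deposited intensity was 54.4 and 60.8 in 35S-GSH1 at 4 °C and 76.8 and 63.1 in 35S-GSH1 at 22 °C. In Col-0 it was 34 and 52.5 at 4 °C and 79.5 and 65.5 at 22 °C. The lowest value of all belonged to Col-0 at 4 °C replicate 1. On the deposited scale the genotypes overlapped at 22 °C. At 4 °C the lower 35S-GSH1 value, 54.4, lay just above the higher Col-0 value, 52.5. The share of probe sets that separate in this way was not counted. After quantile normalization the genotypes overlapped at 4 °C too, at 49.0 and 60.6 in 35S-GSH1 against 31.5 and 51.0 in Col-0. The probe set stood above 61.5% to 76.1% of all probe sets on its array.

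**Figure D1:**
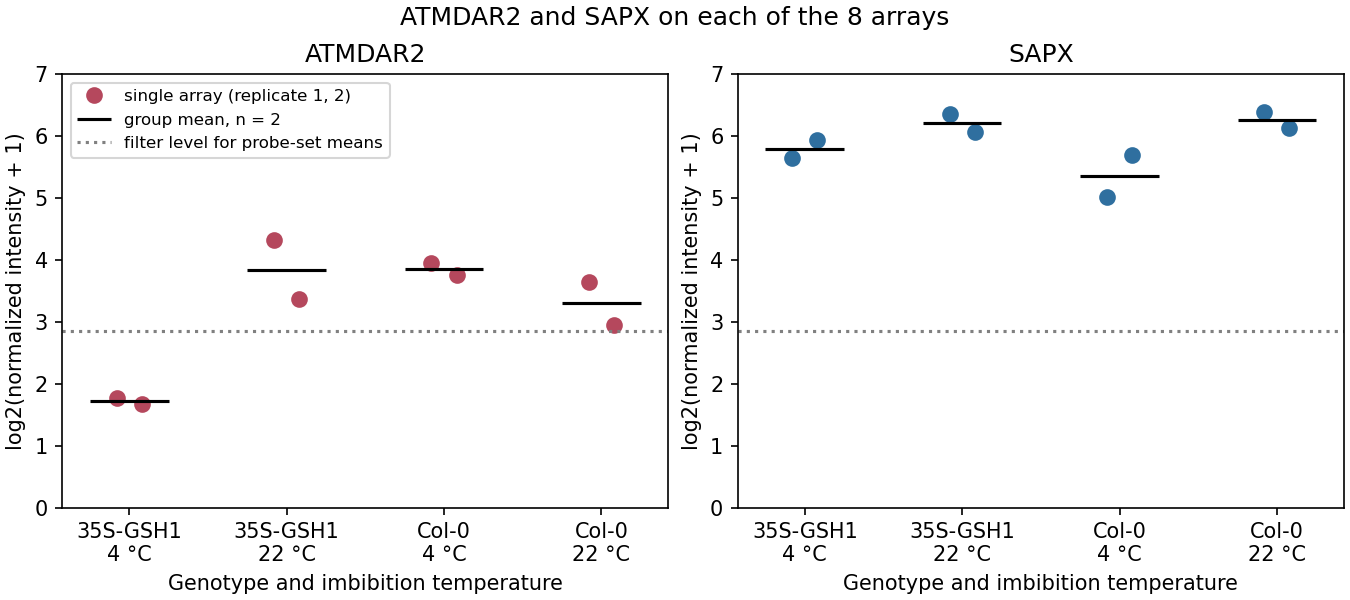
Normalized level of ATMDAR2 (left) and SAPX (right), as log2(normalized intensity + 1), in the 4 groups of genotype and imbibition temperature. Points are single arrays, black lines are means of 2 arrays, and the dotted line is the mean level (2.86) that a probe set needed to be tested. The 35S-GSH1 arrays at 4 °C lie below that line for ATMDAR2, while all 4 arrays at 4 °C lie below all 4 at 22 °C for SAPX.

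On the log2(normalized intensity + 1) scale used for the tests, ATMDAR2 averaged 1.72 ± 0.070 in 35S-GSH1 at 4 °C and 3.84 ± 0.67 in 35S-GSH1 at 22 °C (SD, n = 2 each). It averaged 3.85 ± 0.13 in Col-0 at 4 °C and 3.30 ± 0.49 in Col-0 at 22 °C (SD, n = 2 each). In order of level, Col-0 at 4 °C came first, followed by 35S-GSH1 at 22 °C, Col-0 at 22 °C and 35S-GSH1 at 4 °C. Neighbours among the first 3 overlapped, with gaps of 0.0095 and 0.54 log2 units, and a gap of 1.58 separated Col-0 at 22 °C from 35S-GSH1 at 4 °C.

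SAPX averaged 5.79 ± 0.21 in 35S-GSH1 at 4 °C and 6.22 ± 0.21 in 35S-GSH1 at 22 °C on the same scale (SD, n = 2 each). The Col-0 means were 5.36 ± 0.48 at 4 °C and 6.26 ± 0.19 at 22 °C (SD, n = 2 each). The groups at 22 °C came first and overlapped each other, with a gap of 0.045 between their means. The groups at 4 °C came last and also overlapped each other, with a gap of 0.43, and 35S-GSH1 at 4 °C lay clear of 35S-GSH1 at 22 °C by 0.42.

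The first comparison asked whether cold imbibition went with another level of either gene than warm imbibition within a genotype. In 35S-GSH1 seeds ATMDAR2 fell at 4 °C relative to 22 °C, with a log2 difference of -2.12 (SE 0.57, 95% interval -3.36 to -0.89, n = 2 per group, limma adjusted p = 0.0458). Both of its arrays at 4 °C lay below both at 22 °C, as for 24.8% of tested probe sets. The mean of ATMDAR2 at 4 °C lay under the filter level, and the probe set was tested through the level of the other groups, since its mean over the 4 arrays of 35S-GSH1 alone did not reach the filter. In Col-0 seeds the difference of ATMDAR2 was 0.55 (SE 0.57, 95% interval -0.68 to 1.78, limma adjusted p = 0.635). On normalized values both arrays at 4 °C lay above both at 22 °C, as for 25.1% of tested probe sets, while the deposited values overlapped. Leaving out 1 of the Col-0 arrays at 22 °C moved the ATMDAR2 difference in Col-0 to 0.90 (replicate 1 out) or 0.20 (replicate 2 out). SAPX fell in Col-0 seeds at 4 °C by 0.90 on the log2 scale, which is 1.86-fold (SE 0.25, 95% interval -1.44 to -0.36, n = 2 per group, limma adjusted p = 0.0465), and both arrays at 4 °C lay below both at 22 °C, as for 24.7% of tested probe sets. In 35S-GSH1 seeds SAPX had a log2 difference of -0.42 (SE 0.25, 95% interval -0.96 to 0.12, limma adjusted p = 0.395), with both arrays at 4 °C below both at 22 °C, as for 24.8% of tested probe sets. Each gene thus passed in 1 genotype, and not the same one. In RNA of whole seeds a lower level per cell and a smaller share of the cells that hold the transcript cannot be told apart.

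Lower calls made up 2.78% of the 13648 tested probe sets in 35S-GSH1 and 3.3% in Col-0, and calls in either direction 5.58% and 6.98%. Both calls lay close to the threshold of 0.05. That of ATMDAR2 was lost when any 1 array other than those of Col-0 at 22 °C was left out (adjusted p up to 0.308, without 35S-GSH1 22 °C replicate 1), and a pseudocount of 16 brought its log2 difference to -0.70 (adjusted p = 0.0650). That of SAPX was lost when any 1 array other than Col-0 4 °C replicate 2 was left out, with a log2 difference of -0.56 (adjusted p = 0.338) without Col-0 4 °C replicate 1.

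**Figure D2:**
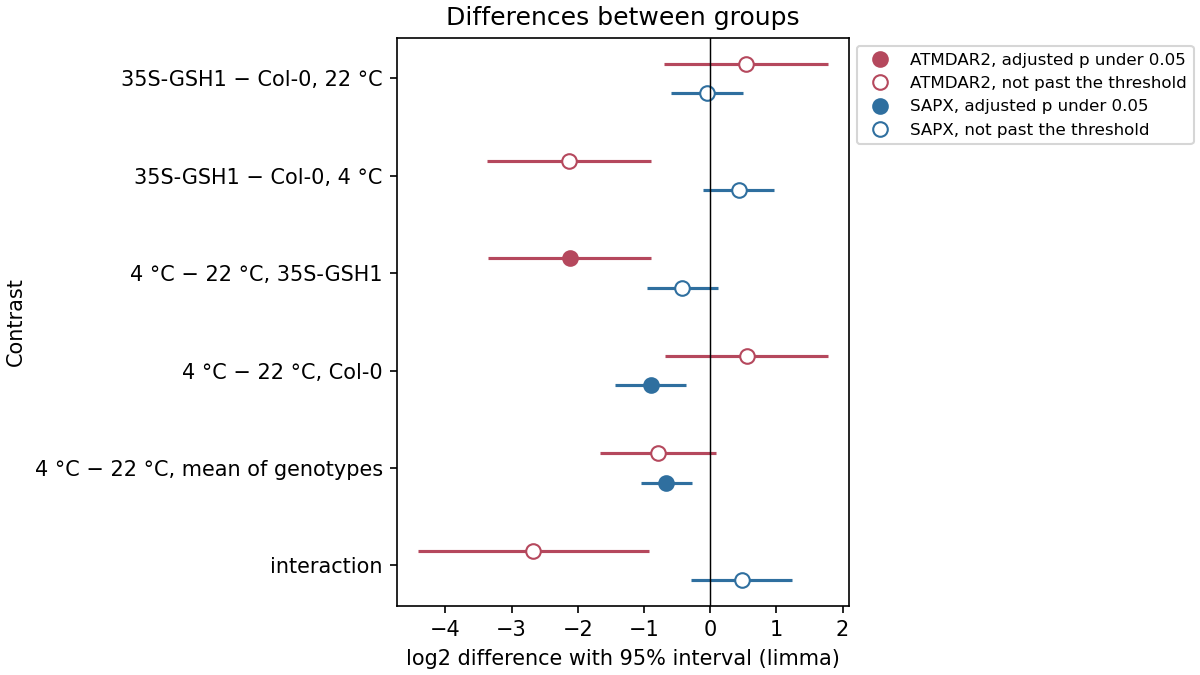
Differences of ATMDAR2 (red) and SAPX (blue) in the 6 contrasts, on the log2(normalized intensity + 1) scale with 95% intervals from limma. Filled points passed an adjusted p of 0.05 and open points did not. Filled are ATMDAR2 for 4 °C against 22 °C in 35S-GSH1 (-2.12) and SAPX for 4 °C against 22 °C in Col-0 (-0.90) and averaged over genotypes (-0.66).

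Averaged over both genotypes, SAPX fell at 4 °C by 0.66 on the log2 scale, which is 1.58-fold (SE 0.18, 95% interval -1.04 to -0.28, 4 arrays per temperature, limma adjusted p = 0.0209). The 4 arrays at 4 °C, at 5.02 to 5.94, all lay below the 4 at 22 °C, at 6.07 to 6.39, which held for 10.3% of tested probe sets. Lower calls in this contrast made up 7.74% of tested probe sets, and calls in either direction 16.4%. In an exact two-sided permutation test over the 70 splits of the 8 arrays into 4 and 4, SAPX had p = 0.0286, the smallest that this design can give, and 0.114 after Benjamini-Hochberg adjustment over 4 such tests (2 genes by 2 factors). The limma call was lost without replicate 1 of any of the 4 groups, with adjusted p of 0.0764 (Col-0 22 °C) to 0.0878 (35S-GSH1 22 °C). LHCB4.1, the green tissue marker, rose in the same contrast by 0.53 (limma adjusted p = 0.00663), while OLEO3 had 0.30 (limma adjusted p = 0.134), and their part in the level of SAPX was not tested.

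The averaged temperature difference of ATMDAR2 was -0.79 (SE 0.41, 95% interval -1.66 to 0.086, limma adjusted p = 0.218), and -0.23 with a pseudocount of 16. Its 4 arrays at 4 °C, at 1.67 to 3.95, overlapped the 4 at 22 °C, at 2.95 to 4.32, and the exact permutation p was 0.343 (0.457 adjusted over the 4 tests).

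The second comparison asked whether GSH1 overexpression went with another level of either gene at a given temperature, and neither gene passed. At 4 °C ATMDAR2 had a log2 difference of -2.13 between 35S-GSH1 and Col-0 (SE 0.57, 95% interval -3.36 to -0.90, n = 2 per group, unadjusted p = 0.00236), with a limma adjusted p of 1. Both 35S-GSH1 arrays lay below both Col-0 arrays, as for 16.1% of tested probe sets. The difference was -0.69 with a pseudocount of 16, and here too the mean over the 4 arrays compared did not reach the filter. At 22 °C the difference of ATMDAR2 was 0.54 (SE 0.57, 95% interval -0.69 to 1.77, limma adjusted p = 0.914), with overlapping arrays. Leaving out 1 of the 35S-GSH1 arrays at 22 °C moved it to 0.065 (replicate 1 out) or 1.02 (replicate 2 out), and leaving out 1 of the Col-0 arrays at 22 °C to 0.89 or 0.19.

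SAPX differed between 35S-GSH1 and Col-0 by 0.43 at 4 °C (SE 0.25, 95% interval -0.11 to 0.97, limma adjusted p = 1), and its arrays overlapped. Without Col-0 4 °C replicate 1, the lowest SAPX array, that difference was 0.093. At 22 °C it was -0.045 (SE 0.25, 95% interval -0.58 to 0.49, limma adjusted p = 0.985). Over all 8 arrays the exact permutation test of 35S-GSH1 against Col-0 gave p = 0.314 for ATMDAR2 (0.457 adjusted over the 4 tests) and p = 0.686 for SAPX (0.686 adjusted). With limma 0% of tested probe sets passed for genotype at either temperature, and 5.71% at 22 °C and 3.22% at 4 °C had an unadjusted p under 0.05.

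The temperature differences of the genotypes were compared directly through the interaction, in which the Col-0 difference between 4 °C and 22 °C is subtracted from the 35S-GSH1 one. For ATMDAR2 it was -2.67 (SE 0.81, 95% interval -4.42 to -0.93, limma adjusted p = 0.9996, unadjusted p = 0.00543). With a pseudocount of 16 it was -0.94. For SAPX it was 0.48 (SE 0.36, 95% interval -0.29 to 1.24, limma adjusted p = 0.9996, unadjusted p = 0.201) and 0.14 without Col-0 4 °C replicate 1. No probe set passed the interaction test with limma (0%), and 3.32% had an unadjusted p under 0.05. The temperature responses of the genotypes were therefore not shown to differ for either gene, although each gene passed in 1 genotype. For ATMDAR2 both the call and the interaction rest on 35S-GSH1 at 4 °C. Its mean there lay under the filter level, and whether it was detected there is unknown.

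The genes differed in how precisely they were measured. ATMDAR2 had a mean log2 value of 3.18, only 0.32 above the level of 2.86 (an intensity of 6.26) that a probe set had to reach to be tested. Its residual SD within groups was 0.42, against a median of 0.61 for the 1241 probe sets within 0.25 log2 units of its mean, and the moderated SD used in its tests was 0.57. Replicates differed by up to 2.03-fold, in 35S-GSH1 at 22 °C. SAPX, at a mean of 5.91, had a residual SD of 0.30, against a median of 0.22 for the 1223 probe sets of like brightness, and 22.0% of those had a larger one. Its replicates differed most in Col-0 at 4 °C, by 1.62-fold.

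**Figure D3:**
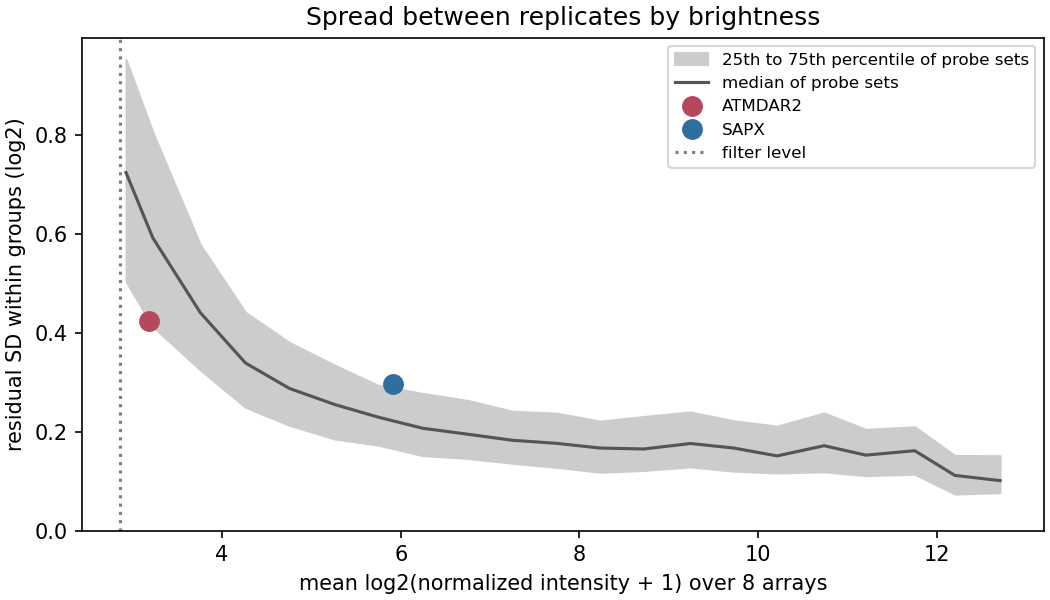
Residual SD within groups (log2) against the mean log2(normalized intensity + 1) over 8 arrays for tested probe sets, as the median (line) and the 25th to 75th percentile (band) in bins of brightness. ATMDAR2 (3.18, SD 0.42) lies beside the filter level (dotted) where the spread is widest, and SAPX (5.91, SD 0.30) lies just above the band of probe sets like it.

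Beside the 2 genes, 8 lists held 56 other genes of ascorbate recycling, ascorbate and glutathione synthesis, and peroxide and superoxide removal. Of these, 12 were represented by a probe set with 1 gene, 10 passed the filter on low values, and the remaining 44 were not analysed here. No other monodehydroascorbate reductase (of 4), no dehydroascorbate reductase (of 3) and no catalase (of 3) was among the 10. At 4 °C in 35S-GSH1 1 of the 10 fell and 0 rose, with a median log2 difference of -0.15 against 0.0036 over all tested probe sets, of which 2.78% were called lower and 5.58% in either direction. At 4 °C in Col-0 0 of the 10 passed, where 6.98% of all tested probe sets did, with a median of 0.086 against 0.0072. Between genotypes, where 0% of all tested probe sets passed, 0 of the 10 passed at 22 °C (median 0.041 against 0.0025) or at 4 °C (median -0.078 against 0.00065).

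The gene that fell was GR1, the glutathione reductase of the cytosol and peroxisome, which regenerates the glutathione used by dehydroascorbate reductases. Its deposited intensity was 161.5 and 142.1 in 35S-GSH1 at 4 °C, against 283 and 253.3 in 35S-GSH1 at 22 °C. In Col-0 it was 141.3 and 163.9 at 4 °C, against 266.6 and 203 at 22 °C. The arrays at 4 °C lay below those at 22 °C in each genotype, as for 24.8% of tested probe sets in 35S-GSH1 and 24.7% in Col-0. All 4 arrays at 4 °C lay below all 4 at 22 °C, as for 10.3% of tested probe sets. The log2 difference of GR1 was -0.90 in 35S-GSH1 (SE 0.19, limma adjusted p = 0.0116) and -0.65 in Col-0 (SE 0.19, limma adjusted p = 0.0506). The call in 35S-GSH1 was lost without 35S-GSH1 4 °C replicate 1 (adjusted p = 0.0611), 35S-GSH1 4 °C replicate 2 (0.0929) or 35S-GSH1 22 °C replicate 1 (0.112). The organellar glutathione reductase GR, which like SAPX works in chloroplasts and mitochondria, had 0.32 in 35S-GSH1 (SE 0.16, limma adjusted p = 0.309) and 0.32 in Col-0 (limma adjusted p = 0.288). All 4 of its arrays at 4 °C lay above all 4 at 22 °C. The share of probe sets that did so is not reported here. Averaged over genotypes GR1 fell by 0.78 (limma adjusted p = 0.00121), and GR had 0.32 (limma adjusted p = 0.0783). Lower calls in that contrast made up 7.74% of tested probe sets, and calls in either direction 16.4%.

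The nearest relative of SAPX in the table was TAPX, the ascorbate peroxidase bound to thylakoid membranes. Its deposited intensity was 1.5 and 4.9 in 35S-GSH1 at 4 °C, 7.4 and 4.5 in 35S-GSH1 at 22 °C, 11 and 1.2 in Col-0 at 4 °C, and 3.7 and 1.7 in Col-0 at 22 °C. Replicates spread as widely as the groups, its mean log2 value of 2.24 lay below the filter level, and it was not tested.

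Of the genes of ascorbate synthesis, 4 were tested and 0 passed in any of the 6 contrasts. Among all tested probe sets 5.58% passed for temperature in 35S-GSH1, 6.98% in Col-0 and 16.4% averaged over genotypes, and 0% for genotype or the interaction. GLDH, the mitochondrial enzyme of the last step of that pathway, had a log2 temperature difference of -0.14 in 35S-GSH1 (SE 0.21, limma adjusted p = 0.785) and 0.40 in Col-0 (SE 0.21, limma adjusted p = 0.297). GME, the epimerase that makes GDP-L-galactose, had -0.15 in 35S-GSH1 (SE 0.17) and -0.35 in Col-0 (SE 0.17, limma adjusted p = 0.253). L-galactose dehydrogenase (AT4G33670), which acts just before GLDH, had -0.14 in 35S-GSH1 and 0.098 in Col-0, each with an SE of 0.17. The phosphomannomutase PMM, an early enzyme of the pathway, was dim (8.9 to 27 deposited) and had -0.67 in 35S-GSH1 and -0.48 in Col-0, each with an SE of 0.37. VTC4, the L-galactose-1-phosphate phosphatase, lay at 0.7 to 4.9 and was not tested.

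**Figure D4:**
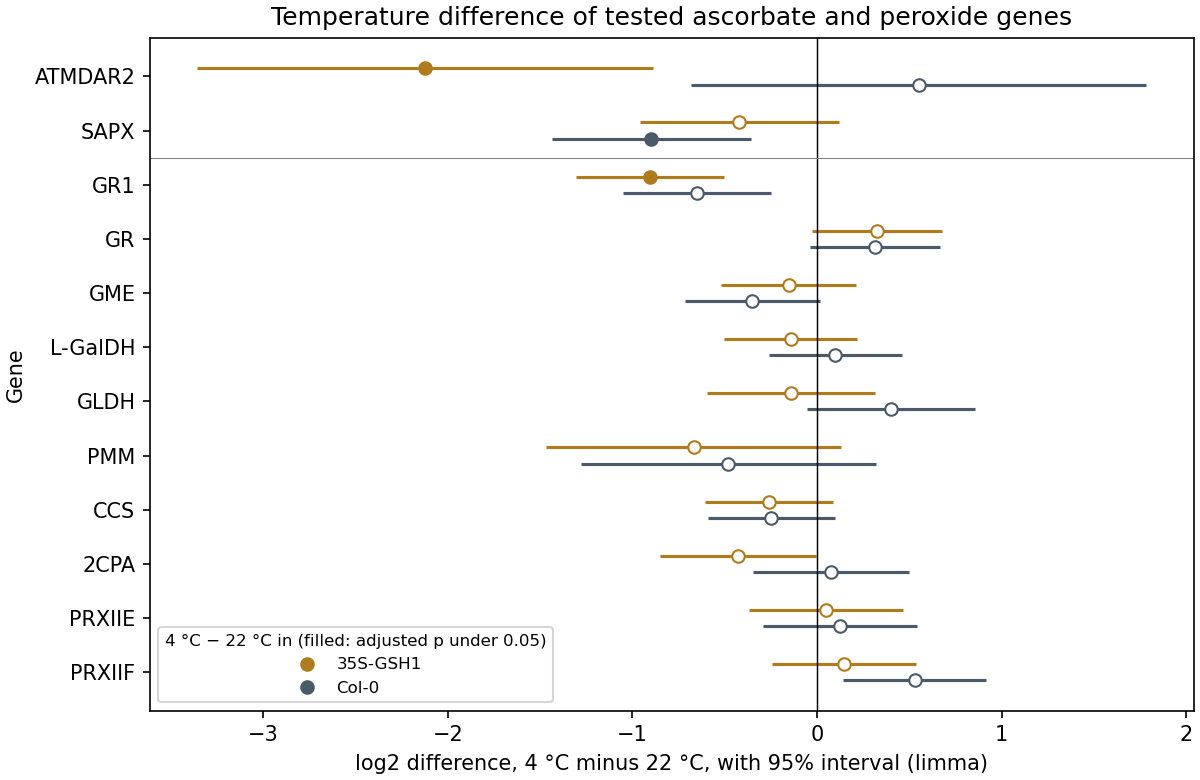
Temperature difference (4 °C minus 22 °C, log2 scale, 95% intervals from limma) of ATMDAR2, SAPX and the 10 other tested genes in 35S-GSH1 (ochre) and Col-0 (grey). Filled points passed an adjusted p of 0.05, which were ATMDAR2 (-2.12) and GR1 (-0.90) in 35S-GSH1 and SAPX (-0.90) in Col-0.

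ATMDAR2 and SAPX did not share a profile, with a Pearson's r of 0.079 over the 8 arrays, which hold 4 groups of replicates and 1 common normalization. Among the 7617 other tested probe sets with 1 gene, the profile most like that of ATMDAR2 belonged to AT1G34220 (r = 0.89). AT2G01070, AT2G22690, SDH2-1, an iron-sulfur subunit of mitochondrial succinate dehydrogenase, and AT5G34900 followed with r of 0.88 to 0.89. No probe set reached 0.9 with ATMDAR2. The temperature differences of these 5 genes ran from -1.49 to -0.25 in 35S-GSH1 and from -0.011 to 0.62 in Col-0. None passed in either genotype, where 5.58% of all tested probe sets passed in 35S-GSH1 and 6.98% in Col-0. These genes were picked for their likeness to ATMDAR2 on these same arrays, so that likeness is no separate evidence.

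For SAPX 49 of the 7617 probe sets had an r over 0.9. The most alike was AT3G60780 (r = 0.97), which fell at 4 °C in Col-0 with a log2 difference of -1.73 (limma adjusted p = 0.0406) and had -0.83 in 35S-GSH1 (limma adjusted p = 0.365). The call of AT3G60780 was lost without either Col-0 22 °C array, either 35S-GSH1 22 °C array or Col-0 4 °C replicate 1. Its difference was -0.96 without the last of these. It was picked for its likeness to SAPX on these same arrays, so that likeness is no separate evidence. PHOS32 (r = 0.97), the subtilisin-like protease gene SBT3.5 (r = 0.97), AT1G75980 (r = 0.96) and AT3G57470 (r = 0.95) came next. Their temperature differences were -0.75 to -0.19 in 35S-GSH1 and -0.98 to -0.33 in Col-0. None of these 4 passed in either genotype, where 5.58% of all tested probe sets passed in 35S-GSH1 and 6.98% in Col-0.

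**Figure D5:**
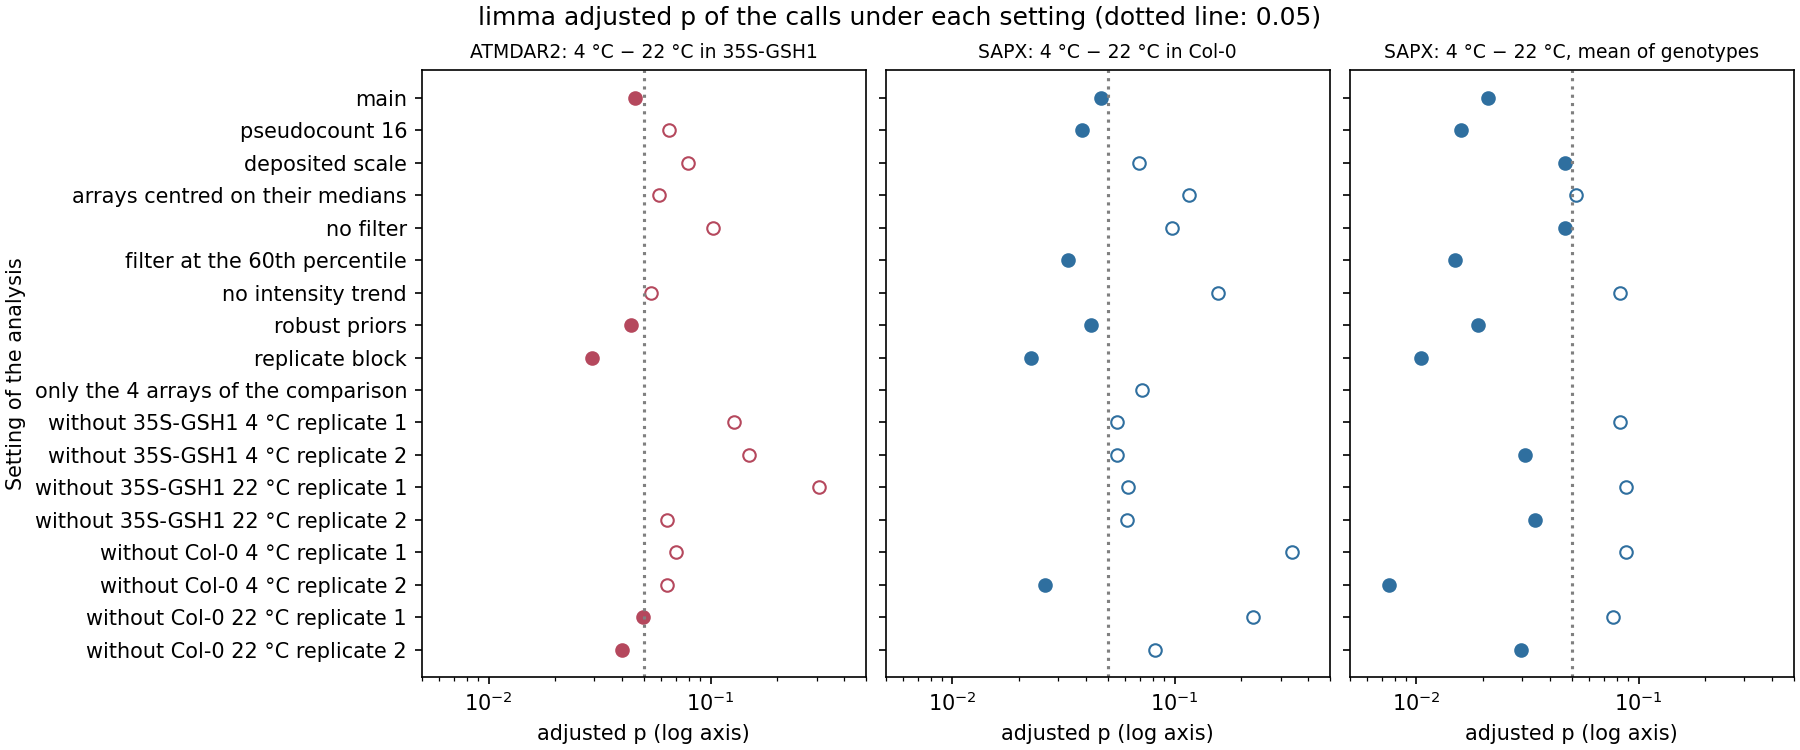
The limma adjusted p (log axis) of the 3 calls for ATMDAR2 and SAPX under each setting of the analysis, filled where it is under 0.05 (dotted line). The call of ATMDAR2 in 35S-GSH1 held under 4 of 15 alternatives and that of SAPX in Col-0 under 5 of 17. The call of SAPX averaged over genotypes held under 10 of 16.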

How the data were processed

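The members, gene lists and tests were chosen with earlier results of these data known. The deposited values are the authors' probe-set intensities on a linear scale, 1 array per sample. The submitters' processing notes name GCOS. For its version, algorithm and scaling nothing is given in the sources, and detection calls were not used here. Trimmed array means lay up to 9.71% from their median, so arrays were quantile normalized, which hides a shift common to most transcripts. Values were analysed as log2(intensity + 1), which understates changes at low intensity. The filter on low values removed probe sets with a mean below the 40th percentile. The limma test (3.58.1, R 4.3.3) used a coefficient per group over all 8 arrays, 4 residual and 9.93 prior degrees of freedom, an intensity trend and Benjamini-Hochberg adjustment over 13648 probe sets, and was two-sided with a threshold of 0.05. With 2 arrays per group, which limits the precision, 95% intervals between groups had a median half-width of 0.52 log2 units. The procedure was tested on simulated data. Names came from the array's annotation table, updated through RefSeq's TAIR10.1 gene table, whose coordinates were not used. Both members, every testable gene of the 8 pathway lists and the 5 most correlated genes per member were named. Alternatives were another pseudocount, other scalings, filters and moderation, a replicate block, the comparison's own arrays alone, and leaving out each array from the normalized values.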

Additional observations from a re-analysis of the deposited data

How the results depend on the processing

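Of the 3 calls, that of ATMDAR2 at 4 °C in 35S-GSH1 held under 4 of 15 alternatives, that of SAPX at 4 °C in Col-0 under 5 of 17, and that of SAPX averaged over genotypes under 10 of 16, each with a negative difference under all of them. ATMDAR2 had -0.70 with a pseudocount of 16, -1.93 on the deposited scale, -2.08 with arrays centred on their medians, and -2.12 without the filter or without the intensity trend, with adjusted p of 0.0541 to 0.103. With 1 array left out it ran from -2.60 to -1.65 (adjusted p 0.0399 to 0.308). SAPX in Col-0 had -0.76 on the deposited scale, -0.83 with centred arrays, and -0.90 without the filter, without the trend or on its own 4 arrays, with adjusted p of 0.0692 to 0.157, and from -1.24 to -0.56 with 1 array left out. SAPX averaged had -0.62 with centred arrays (adjusted p = 0.0521) and -0.66 without the trend (0.0826), and from -0.83 to -0.49 with 1 array left out. The genotype difference of SAPX at 22 °C, not a call, turned to 0.021 with centred arrays and ran from -0.19 to 0.10 with 1 array left out. No other difference of ATMDAR2 or SAPX changed sign or side of the threshold. The causes were not tested. Among other named calls, GR1 in 35S-GSH1 was also lost without the trend (adjusted p = 0.0958), and AT3G60780 without the filter, without the trend or on its own 4 arrays (0.0718 to 0.127), while GR1 and LHCB4.1 averaged over genotypes kept theirs under every alternative. With the stricter filter at the 60th percentile ATMDAR2 was not tested, nor on the 4 arrays of the 35S-GSH1 or of the 4 °C comparison alone, where its mean lay under the filter level.

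With the replicate number as a block the adjusted p was 0.0291 for ATMDAR2 in 35S-GSH1 (-2.12), 0.0226 for SAPX in Col-0 (-0.90) and 0.0105 for SAPX averaged (-0.66). Deviations of same-numbered arrays correlated weakly, at 0.051 to 0.14, all positive. ATMDAR2 was higher in replicate 1 than in replicate 2 in every group, and so was the median deposited intensity of the arrays. The share of probe sets with that pattern was not counted. The labels do not say whether the numbers pair the samples, and the main tests did not pair them. The block raised the count of called probe sets from 762 to 1386 in 35S-GSH1 and from 953 to 1692 in Col-0 for temperature. Without the trend these counts were 117 and 153, and with 1 array left out 255 to 794 and 429 to 850. The averaged count was 2237, and 1153 without the trend. For genotype the counts were 0, and at most 2 at 22 °C and 1 at 4 °C. On the deposited scale the median of all probe sets shifted by 0.12 in 35S-GSH1 and 0.090 in Col-0 for temperature.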

Other observations

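The other tested genes of peroxide and superoxide removal showed no call in any of the 6 contrasts. Of all tested probe sets, 5.58% passed for temperature in 35S-GSH1, 6.98% in Col-0 and 16.4% averaged over genotypes. For genotype and the interaction 0% passed. The chloroplast 2-Cys peroxiredoxin AT3G11630, which reduces hydrogen peroxide without ascorbate, had a deposited intensity of 108.3 and 97.6 in 35S-GSH1 at 4 °C, against 162.3 and 143.3 in Col-0 at 4 °C. Both 35S-GSH1 arrays lay below both Col-0 arrays, as for 16.1% of tested probe sets. The log2 difference of AT3G11630 was -0.59 (SE 0.20, limma adjusted p = 1, unadjusted p = 0.0101), where 3.22% of tested probe sets had an unadjusted p under 0.05. At 22 °C its genotype difference was -0.084 (SE 0.20, limma adjusted p = 0.959), and its interaction was -0.50 (SE 0.28, limma adjusted p = 0.9996). The mitochondrial peroxiredoxin PRXIIF had a temperature difference of 0.15 in 35S-GSH1 (SE 0.18, limma adjusted p = 0.729) and 0.53 in Col-0 (SE 0.18, limma adjusted p = 0.101). The chloroplast peroxiredoxin AT3G52960 had 0.050 in 35S-GSH1 and 0.12 in Col-0, each with an SE of 0.19. CCS, the chaperone that delivers copper to superoxide dismutases, had -0.26 in 35S-GSH1 and -0.25 in Col-0, each with an SE of 0.16. Every array at 4 °C lay below every array at 22 °C of the same genotype. Such a separation held for 24.8% of tested probe sets in 35S-GSH1 and 24.7% in Col-0.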
